A study of Homo sapiens with 6 samples.

Results

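The human replication-dependent histone genes, named HIST1 to HIST4 after their genome clusters, were examined in 2 B cell lymphoma lines made resistant to either of 2 kinase inhibitors. Members were the genes whose symbol begins with HIST1H, HIST2H, HIST3H or HIST4H, whose FPKM summed over isoforms of 300 nt or more reached 1 in any library. Of 70 such symbols in the deposited tables, 63 qualified, among 12186 genes in all that passed the same filter. The 7 others (HIST1H1A, HIST1H1T, HIST1H2AA, HIST1H2APS1, HIST1H2BA, HIST1H4G and HIST3H3) were at or near 0 in every library. The members comprise 50 genes of HIST1 on chromosome 6, 10 of HIST2 and 2 of HIST3 on chromosome 1, and HIST4H4. By symbol they are 4 genes of linker histones H1, 15 of H2A, 19 of H2B, 12 of H3 and 13 of H4. HIST2H2BA and HIST2H2BC, counted under H2B, are annotated in RefSeq as non-coding RNAs. FPKM are fragments scaled to transcript length and to the fragments mapped in a library.

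There were 6 libraries, 1 per group, with no replicate. They came from ibrutinib-resistant DOHH2, idelalisib-resistant DOHH2, ibrutinib-resistant DAUDI, idelalisib-resistant DAUDI, DOHH2 labelled WT and DAUDI labelled WT. DOHH2 represents follicular lymphoma and DAUDI represents Burkitt lymphoma, and both came from ATCC. Ibrutinib inhibits the kinase BTK and idelalisib inhibits the delta isoform of PI3K, and both enzymes act below the B cell receptor. The sources used here give no drug dose, no length of exposure and no statement on whether the resistant cells were clones or were still in drug. The question set by the design is how resistant cells of each line differ from the cells labelled WT, and how the lines and drugs differ from each other.

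Replication-dependent histone genes supply the proteins that package newly made DNA, and they are transcribed mainly in S phase. Their messengers are the only known metazoan mRNAs that normally lack a polyA tail: they end just after a conserved stem-loop that is bound by SLBP and cut with the help of the U7 small nuclear RNP. Some of these genes can also end at a polyA signal downstream, and such tailed forms are known from cells that have left the cycle or are differentiating. The libraries were made from polyA RNA with a directional kit. A member's value is therefore a level among the RNA recovered by polyA selection, in which tailed forms are favoured and carried-over tailless RNA also counts, and the deposited values do not separate these sources. In addition, fewer expressing cells and less RNA per cell cannot be told apart in bulk RNA.

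The stem-loops of members on which the results turn are shown because they mark where the tailless form ends (GENCODE 29, GRCh38, sense strand 5′ to 3′, written as DNA, stem-loop of 16 nt in capitals).
HIST1H2BD, chr6:26158582-26158607, plus strand: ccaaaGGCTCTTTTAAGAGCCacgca
HIST1H2AC, chr6:26124664-26124689, plus strand: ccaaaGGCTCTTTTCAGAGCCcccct
HIST2H2BE, chr1:149886183-149886208, minus strand: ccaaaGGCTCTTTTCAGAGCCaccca
HIST2H2AA4, chr1:149851569-149851594, plus strand: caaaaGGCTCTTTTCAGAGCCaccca
HIST1H2AE, chr6:26217412-26217437, plus strand: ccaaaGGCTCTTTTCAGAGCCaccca
HIST1H2BG, chr6:26216213-26216238, minus strand: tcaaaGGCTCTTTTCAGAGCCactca
HIST1H4E, chr6:26204996-26205021, plus strand: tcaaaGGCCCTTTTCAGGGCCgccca
HIST3H2A, chr1:228457364-228457389, minus strand: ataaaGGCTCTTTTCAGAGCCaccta
The last bases of the longer annotated transcripts of HIST1H2BD, HIST1H2AC and HIST2H2BE are shown because these genes have a second, downstream end; capitals mark the polyA signal AATAAA.
HIST1H2BD, chr6:26171320-26171349, plus strand: taattAATAAAatctgcggagaattgtaaa
HIST1H2AC, chr6:26139073-26139102, plus strand: agcctggcatgaggtAATAAAaggtaatgc
HIST2H2BE, chr1:149884459-149884488, minus strand: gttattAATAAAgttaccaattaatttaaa
A stem-loop was found in an annotated transcript of 29 of the 63 members, since many annotated transcripts stop before it. An annotated end with a polyA signal, away from any stem-loop, was found for 19 members.

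Both libraries labelled WT stood apart from the resistant libraries of their own line. Across the 12186 genes their log2(FPKM + 1) values correlated at r = 0.991 with each other, but at 0.737 (ibrutinib) and 0.730 (idelalisib) in DOHH2 and at 0.722 (ibrutinib) and 0.736 (idelalisib) in DAUDI with the resistant libraries of the same label. They are therefore called the libraries labelled WT throughout. Whether either carries a wrong label, or both come from 1 culture, was not tested, and limma fits that use both count them as 2 separate cultures. The comparisons between resistant libraries do not use them. The deposited tables hold no read counts and absolute depth is unknown; relative to DAUDI labelled WT, depth read from coverage per FPKM was 1.42 in ibrutinib-resistant DAUDI and 0.936 to 1.04 in the other libraries. The 6 B cell markers were at 28 FPKM or more in all libraries. Of 5 T and NK cell markers, CD3D was listed at 0 throughout, whereas CD3E had 2.55 (ibrutinib) and 1.32 FPKM (idelalisib) in resistant DOHH2 and NKG7 had 1.51 (ibrutinib) and 1.31 FPKM (idelalisib) in resistant DAUDI, and both were listed at 0 in the libraries labelled WT. Of 4 myeloid markers, CD14, which marks monocytes, did not exceed 0.103 FPKM. CSF1R had 0 (ibrutinib) and 0 FPKM (idelalisib) in resistant DOHH2, 2.2 (ibrutinib) and 5.73 FPKM (idelalisib) in resistant DAUDI, and 0.015 (DOHH2) and 0.0219 FPKM (DAUDI) in the libraries labelled WT, and CD33 had 26.2 (ibrutinib) and 29.1 FPKM (idelalisib) in resistant DOHH2, 10.6 (ibrutinib) and 2.29 FPKM (idelalisib) in resistant DAUDI, and 0 (DOHH2) and 0.0326 FPKM (DAUDI) in the libraries labelled WT. ITGAM reached 1.81 FPKM, in ibrutinib-resistant DAUDI. CSF1R was thus lower (-1.07) and CD33 higher (1.81) in ibrutinib-resistant than in idelalisib-resistant DAUDI, and the part of these markers in the results was not tested. The stromal and epithelial markers stayed under 1 FPKM. Of 3 erythroid markers, 2 reached 1 FPKM, in DOHH2 labelled WT only: HBB at 3.39 FPKM and another at 2.05 FPKM.

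The summed level of the members differed between libraries. Their FPKM summed to 240.4 in ibrutinib-resistant DOHH2, 289 in idelalisib-resistant DOHH2, 76.7 in ibrutinib-resistant DAUDI, 287 in idelalisib-resistant DAUDI, 967 in DOHH2 labelled WT and 929 in DAUDI labelled WT. Of the 63 members, 46, 45, 27 and 50 reached 1 FPKM in the resistant libraries in that order, and 56 and 58 in DOHH2 and DAUDI labelled WT. Of all 12186 genes, 10249, 10219, 10588 and 10358 did so in the resistant libraries, and 10621 and 10512 in those labelled WT. The filter shaped the member counts, since 9 members reached 1 FPKM only in libraries labelled WT and 5 only in resistant libraries. The 6 genes of highest level (HIST1H1C, HIST1H2BK, HIST1H2BD, HIST2H2AA4, HIST1H2AC and HIST2H2BE) made up 70.4% (DOHH2) and 64.1% (DAUDI) of the members' sum in the libraries labelled WT. In the resistant libraries they made up 33.3% (ibrutinib) and 32.4% (idelalisib) in DOHH2 and 22.5% (ibrutinib) and 18.5% (idelalisib) in DAUDI. The other 57 members summed to 160.3, 196, 59.5 and 234 FPKM in the 4 resistant libraries in the same order, against 286 and 334 FPKM in DOHH2 and DAUDI labelled WT. Ibrutinib-resistant DAUDI was the lowest or tied lowest of the 6 libraries for 48 of 63 members, the lowest alone for 41, and the highest for 0. This was not counted over all genes, so it does not show whether the members are unlike other genes here.

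**Figure D1:**
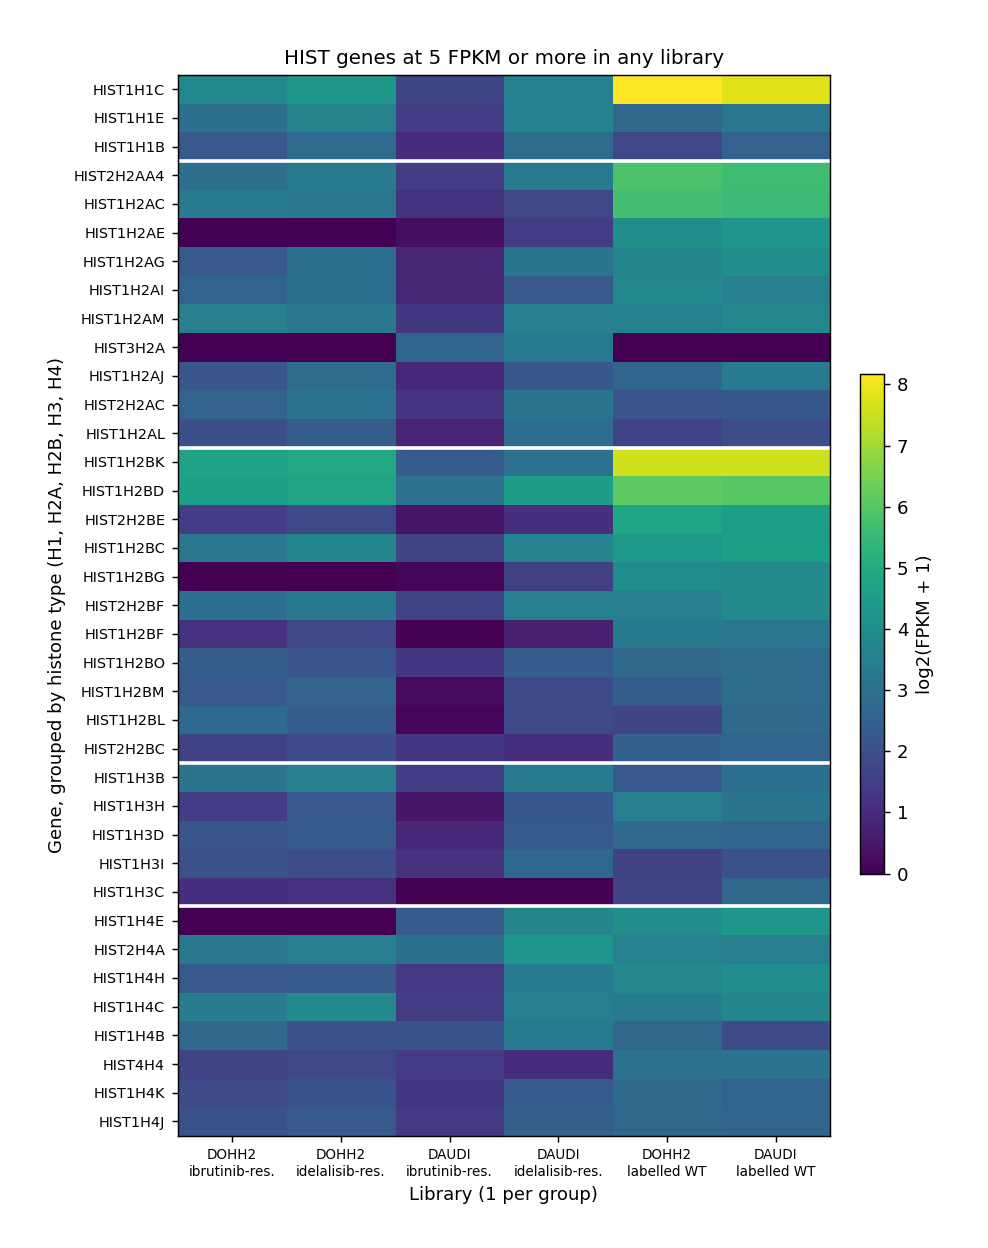
Heat map of log2(FPKM + 1) for the 37 HIST genes at 5 FPKM or more in any library (rows, grouped by histone type, white lines between types) in the 6 libraries (columns, 1 library each). The third column, ibrutinib-resistant DAUDI, is dark for most genes, and HIST1H1C and HIST1H2BK are brightest in both libraries labelled WT.

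The clearest contrast between the drugs lay in DAUDI. Of 63 members, 39 were lower by 1 or more on the log2(FPKM + 1) scale in ibrutinib-resistant than in idelalisib-resistant DAUDI, and 0 were higher. Over all 12186 genes, 0.788% were lower and 2.02% were higher by as much (2.81% in either direction), so that 96 genes were lower and 40.6% of them were members. The median difference was −1.12 for the members and 0.15 for all genes. Of the 39, HIST3H2BB reached 1 FPKM in idelalisib-resistant DAUDI only. The lower members came from every histone type, with 3 of 4 H1, 10 of 15 H2A, 11 of 19 H2B, 7 of 12 H3 and 8 of 13 H4 genes. In FPKM, the 50 members at 1 FPKM or more in idelalisib-resistant DAUDI had a median ratio of 0.214 (ibrutinib over idelalisib, range 0 to 1.57), and 48 of them had a ratio under 1. Among the 10358 genes of all kinds at that level the median ratio was 1.14. With 1 library per group there is no test of these differences, and log2(FPKM + 1) understates the change of genes near 1 FPKM. With a pseudocount of 5 in place of 1 the number lower was 12 and the median −0.49, and with 0.1 they were 49 and −2.05. Rescaling by the median of ratios or to one upper quartile left 39 members lower and 0 higher, while the split of all genes moved to 153 higher and 111 lower and to 150 higher and 118 lower, against 246 higher and 96 lower as deposited.

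The largest differences of this kind were in H2A, H4 and H1 genes. HIST1H2AG, an H2A gene, had 3.89 (ibrutinib) and 6.64 FPKM (idelalisib) in resistant DOHH2, 0.836 (ibrutinib) and 7.97 FPKM (idelalisib) in resistant DAUDI, and 12.3 (DOHH2) and 15.2 FPKM (DAUDI) in the libraries labelled WT. Its difference in DAUDI was -2.29, and ibrutinib-resistant DAUDI was the lowest library by far. HIST1H2AM, an H2A gene of another part of HIST1, had 10.7 (ibrutinib) and 8.66 FPKM (idelalisib) in resistant DOHH2, 1.51 (ibrutinib) and 10.7 FPKM (idelalisib) in resistant DAUDI, and 11 (DOHH2) and 12.7 FPKM (DAUDI) in the libraries labelled WT, a difference of -2.22 in DAUDI. For HIST1H2AM the other 5 libraries lay close together. HIST1H4C, which encodes the H4 protein shared by the H4 genes, had 9.82 (ibrutinib) and 13.6 FPKM (idelalisib) in resistant DOHH2, 1.67 (ibrutinib) and 10.5 FPKM (idelalisib) in resistant DAUDI, and 9.33 (DOHH2) and 12.4 FPKM (DAUDI) in the libraries labelled WT (-2.10 in DAUDI). HIST1H1E, a linker histone gene, had 6.9 (ibrutinib) and 11.5 FPKM (idelalisib) in resistant DOHH2, 1.82 (ibrutinib) and 11 FPKM (idelalisib) in resistant DAUDI, and 5.59 (DOHH2) and 8.28 FPKM (DAUDI) in the libraries labelled WT (-2.09 in DAUDI). Both genes were at least as high in idelalisib-resistant DAUDI and in resistant DOHH2 as in 1 of the libraries labelled WT, and low in ibrutinib-resistant DAUDI only. Of the 39 members lower here, 32 did not pass the test of resistant against WT-labelled libraries described further on.

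Other members at 5 FPKM or more followed the same order of levels in DAUDI. Among H2A genes, HIST1H2AL had 2.94 (ibrutinib) and 4.34 FPKM (idelalisib) in resistant DOHH2, 0.767 (ibrutinib) and 6.5 FPKM (idelalisib) in resistant DAUDI, and 2.19 (DOHH2) and 2.78 FPKM (DAUDI) in the libraries labelled WT. HIST2H2AC had 5.06 (ibrutinib) and 7.71 FPKM (idelalisib) in resistant DOHH2, 1.32 (ibrutinib) and 7.78 FPKM (idelalisib) in resistant DAUDI, and 3.58 (DOHH2) and 3.76 FPKM (DAUDI) in the libraries labelled WT. HIST1H2AJ had 3.54 (ibrutinib) and 6.18 FPKM (idelalisib) in resistant DOHH2, 0.884 (ibrutinib) and 3.74 FPKM (idelalisib) in resistant DAUDI, and 5.31 (DOHH2) and 9.21 FPKM (DAUDI) in the libraries labelled WT. For HIST1H2AL and HIST2H2AC, both resistant DOHH2 libraries and idelalisib-resistant DAUDI lay above the libraries labelled WT. Among H2B genes, HIST1H2BC had 8.34 (ibrutinib) and 12.4 FPKM (idelalisib) in resistant DOHH2, 2.19 (ibrutinib) and 11.5 FPKM (idelalisib) in resistant DAUDI, and 20.3 (DOHH2) and 23.7 FPKM (DAUDI) in the libraries labelled WT. HIST2H2BF had 6.93 (ibrutinib) and 8.82 FPKM (idelalisib) in resistant DOHH2, 2.2 (ibrutinib) and 10.5 FPKM (idelalisib) in resistant DAUDI, and 10.4 (DOHH2) and 14 FPKM (DAUDI) in the libraries labelled WT. Ibrutinib-resistant DAUDI was again lowest for both. HIST1H2BM had 3.85 (ibrutinib) and 5.01 FPKM (idelalisib) in resistant DOHH2, 0.19 (ibrutinib) and 2.59 FPKM (idelalisib) in resistant DAUDI, and 4.33 (DOHH2) and 6.34 FPKM (DAUDI) in the libraries labelled WT. HIST1H2BO had 4.36 (ibrutinib) and 3.56 FPKM (idelalisib) in resistant DOHH2, 1.44 (ibrutinib) and 4.06 FPKM (idelalisib) in resistant DAUDI, and 6.05 (DOHH2) and 6.62 FPKM (DAUDI) in the libraries labelled WT. Their differences of ibrutinib-resistant minus idelalisib-resistant DAUDI were -1.59 for HIST1H2BM and -1.05 for HIST1H2BO. HIST1H2BL had 5.93 (ibrutinib) and 4.27 FPKM (idelalisib) in resistant DOHH2, 0.0919 (ibrutinib) and 2.5 FPKM (idelalisib) in resistant DAUDI, and 2.23 (DOHH2) and 6.01 FPKM (DAUDI) in the libraries labelled WT. HIST1H2BL thus ranged widely in DAUDI, and its libraries labelled WT also differed.

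The same held for linker histone and H3 genes. HIST1H1B, a linker histone gene, had 3.9 (ibrutinib) and 6.17 FPKM (idelalisib) in resistant DOHH2, 1.06 (ibrutinib) and 6.47 FPKM (idelalisib) in resistant DAUDI, and 2.35 (DOHH2) and 4.98 FPKM (DAUDI) in the libraries labelled WT. HIST1H3B had 7.74 (ibrutinib) and 10.8 FPKM (idelalisib) in resistant DOHH2, 1.86 (ibrutinib) and 9.2 FPKM (idelalisib) in resistant DAUDI, and 3.84 (DOHH2) and 6.96 FPKM (DAUDI) in the libraries labelled WT. HIST1H3D, 1 isoform of which spans the HIST1H2AD locus on the same strand, so that reads there may be split, had 3.52 (ibrutinib) and 3.99 FPKM (idelalisib) in resistant DOHH2, 0.884 (ibrutinib) and 4.0 FPKM (idelalisib) in resistant DAUDI, and 5.79 (DOHH2) and 5.31 FPKM (DAUDI) in the libraries labelled WT. For HIST1H1B and HIST1H3B the idelalisib-resistant libraries of both lines lay above the library labelled WT of their line. HIST1H3I had 3.11 (ibrutinib) and 2.8 FPKM (idelalisib) in resistant DOHH2, 1.24 (ibrutinib) and 5.63 FPKM (idelalisib) in resistant DAUDI, and 2.0 (DOHH2) and 3.06 FPKM (DAUDI) in the libraries labelled WT. HIST1H3H had 1.77 (ibrutinib) and 3.89 FPKM (idelalisib) in resistant DOHH2, 0.42 (ibrutinib) and 3.78 FPKM (idelalisib) in resistant DAUDI, and 10.2 (DOHH2) and 7.89 FPKM (DAUDI) in the libraries labelled WT. Its ibrutinib-resistant library was the lower of the pair in both lines, with differences of -0.82 in DOHH2 and -1.75 in DAUDI.

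The H4 genes make one protein from many near-identical copies, so their FPKM may be shared between copies. HIST2H4A, whose copy HIST2H4B has nearly the same sequence, had 8.63 (ibrutinib) and 10.2 FPKM (idelalisib) in resistant DOHH2, 7.12 (ibrutinib) and 18.2 FPKM (idelalisib) in resistant DAUDI, and 11.3 (DOHH2) and 10.2 FPKM (DAUDI) in the libraries labelled WT. HIST1H4H had 3.84 (ibrutinib) and 4.07 FPKM (idelalisib) in resistant DOHH2, 1.57 (ibrutinib) and 9.3 FPKM (idelalisib) in resistant DAUDI, and 12.6 (DOHH2) and 14.9 FPKM (DAUDI) in the libraries labelled WT. HIST1H4B had 5.53 (ibrutinib) and 3.08 FPKM (idelalisib) in resistant DOHH2, 3.37 (ibrutinib) and 9.6 FPKM (idelalisib) in resistant DAUDI, and 5.52 (DOHH2) and 2.73 FPKM (DAUDI) in the libraries labelled WT. For HIST2H4A and HIST1H4B idelalisib-resistant DAUDI was the highest of the 6 libraries. HIST1H4J had 3.15 (ibrutinib) and 3.88 FPKM (idelalisib) in resistant DOHH2, 1.62 (ibrutinib) and 4.51 FPKM (idelalisib) in resistant DAUDI, and 5.56 (DOHH2) and 5.15 FPKM (DAUDI) in the libraries labelled WT. HIST1H4K had 2.7 (ibrutinib) and 3.16 FPKM (idelalisib) in resistant DOHH2, 1.48 (ibrutinib) and 4.13 FPKM (idelalisib) in resistant DAUDI, and 5.91 (DOHH2) and 5.23 FPKM (DAUDI) in the libraries labelled WT. All 5 were lower by 1 or more in ibrutinib-resistant than in idelalisib-resistant DAUDI, with differences between -1.05 (HIST1H4K) and -2.0 (HIST1H4H).

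In DOHH2 the drugs differed little for these genes. Of 63 members, 0 were higher and 1 was lower by 1 or more in ibrutinib-resistant than in idelalisib-resistant DOHH2, HIST2H2AB at 0.989 against 3.06 FPKM (-1.03), which became a member only through idelalisib-resistant DOHH2. In this comparison 0.172% of all genes were lower and 0.451% were higher (0.624% in either direction). The median member difference was −0.16, against −0.02 for all genes. The 45 members at 1 FPKM or more in idelalisib-resistant DOHH2 had a median ratio of 0.785 (ibrutinib over idelalisib), and 36 had a ratio under 1. Whether the drug difference itself differed between the lines was not tested, since no library was repeated. Taking the lines as replicates, limma on the 4 resistant libraries called 0 members and 0 of all 12186 genes for ibrutinib minus idelalisib at an adjusted p under 0.05 (0% called), and at an unadjusted p under 0.05 it passed 12 members and 225 genes. That fit has 1 residual degree of freedom.

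**Figure D2:**
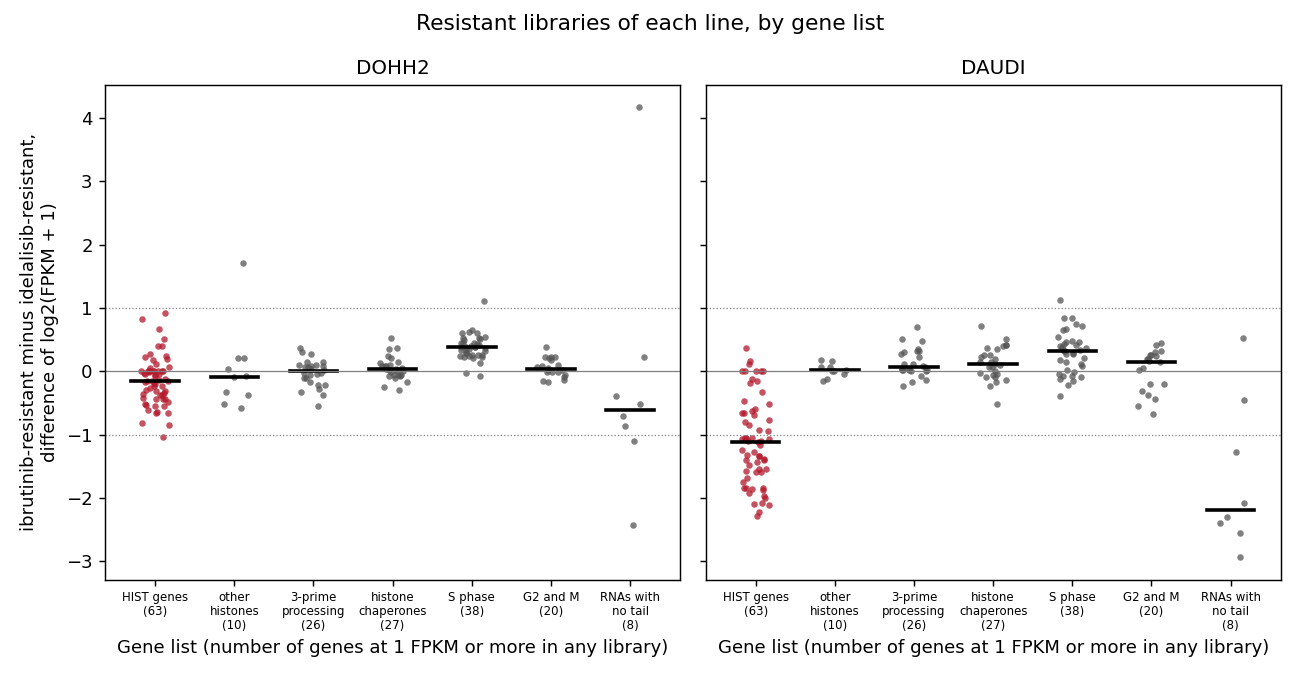
Difference of log2(FPKM + 1), ibrutinib-resistant minus idelalisib-resistant, in DOHH2 (left) and DAUDI (right) for the HIST genes (red) and 6 other gene lists (grey); each point is a gene, black bars are medians and dotted lines mark 1 and −1. In DAUDI the HIST genes have a median of −1.12 and the RNAs with no tail a median of −2.18, while the other lists have medians between 0.02 and 0.32.

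Gene lists around histone supply were set beside this contrast. The histone genes outside the clusters, which are made throughout the cycle as polyA mRNAs, had 10 of 18 listed genes at 1 FPKM or more. Of these 10, 0 were lower and 0 were higher by 1 or more in ibrutinib-resistant than in idelalisib-resistant DAUDI, with a median of 0.02. H2AFZ, the variant H2A.Z, had 225 FPKM in ibrutinib-resistant DAUDI and 198 FPKM in idelalisib-resistant DAUDI, and H3F3B, a gene of the H3.3 variant, had 65.8 and 64.6 FPKM in the same libraries. Of 26 genes of histone mRNA transcription and 3′ processing, 0 were called in either direction (median 0.07). SLBP, the stem-loop binding protein, was at 33.3 and 32.9 FPKM, and NPAT, the histone gene coactivator, at 7.68 and 7.43 FPKM in ibrutinib-resistant and idelalisib-resistant DAUDI. Of 27 histone chaperones 0 were called (median 0.12), and of 20 genes of G2 and M phase 0 were called (median 0.15). Of 38 S phase genes, 1 was higher (CDC6, a replication licensing factor, 1.13) and 0 were lower, with a median of 0.32.

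RNAs that have no polyA tail did differ in this pair of libraries. Of 14 such RNAs, 8 are in the tables and passed the filter; 6 were lower and 0 were higher by 1 or more in ibrutinib-resistant DAUDI, with a median of −2.18. RMRP, the RNA of the RNase MRP enzyme, had 1049 (ibrutinib) and 1372 FPKM (idelalisib) in resistant DOHH2, 231 (ibrutinib) and 1221 FPKM (idelalisib) in resistant DAUDI, and 1342 (DOHH2) and 1434 FPKM (DAUDI) in the libraries labelled WT. RPPH1, the RNA of RNase P, had 152 (ibrutinib) and 278 FPKM (idelalisib) in resistant DOHH2, 34.2 (ibrutinib) and 147 FPKM (idelalisib) in resistant DAUDI, and 221 (DOHH2) and 329 FPKM (DAUDI) in the libraries labelled WT. Both were lowest in ibrutinib-resistant DAUDI, as most members were. SCARNA2, a guide RNA of Cajal bodies, had 12.3 (ibrutinib) and 20.8 FPKM (idelalisib) in resistant DOHH2, 2.27 (ibrutinib) and 18.1 FPKM (idelalisib) in resistant DAUDI, and 12.3 (DOHH2) and 12.4 FPKM (DAUDI) in the libraries labelled WT. SCARNA10 had 30.4 (ibrutinib) and 44 FPKM (idelalisib) in resistant DOHH2, 8.77 (ibrutinib) and 46.9 FPKM (idelalisib) in resistant DAUDI, and 26.2 (DOHH2) and 34.9 FPKM (DAUDI) in the libraries labelled WT. TERC, the RNA of telomerase, had 5.01 (ibrutinib) and 4.17 FPKM (idelalisib) in resistant DOHH2, 1.85 (ibrutinib) and 5.93 FPKM (idelalisib) in resistant DAUDI, and 4.09 (DOHH2) and 3.16 FPKM (DAUDI) in the libraries labelled WT. The spliceosomal RNAs went different ways, with a difference in DAUDI of -2.93 for RNU12, -0.46 for RNU4ATAC and 0.52 for RNU11. Most of these RNAs were thus lower in ibrutinib-resistant than in idelalisib-resistant DAUDI, as most members were. Relative depth was higher, at 1.42 in ibrutinib-resistant against 1.04 in idelalisib-resistant DAUDI. The part of tailless RNA and of depth in the member differences was not tested. In DOHH2 the same list had 1 higher and 2 lower RNAs and a median of −0.61.

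Against the libraries labelled WT, members were mostly lower in resistant cells, and a subset was lower in all 4. In limma over all 6 libraries with the line as a block, 21 of 63 members fell in resistant against WT-labelled libraries at an adjusted p under 0.05 and 0 rose, where 13.8% of all genes fell, 15.5% rose and 29.3% were called in either direction. The median difference was −0.82 for the members and 0.12 for all genes. HIST1H1C, the linker histone gene of highest level, had 13.1 (ibrutinib) and 18.8 FPKM (idelalisib) in resistant DOHH2, 2.3 (ibrutinib) and 11.1 FPKM (idelalisib) in resistant DAUDI, and 286 (DOHH2) and 220.2 FPKM (DAUDI) in the libraries labelled WT, a difference of -4.62 ± 0.41 (SE, adjusted p = 0.00554). The 4 resistant libraries all lay far below both WT-labelled ones. HIST1H2BK, an H2B gene whose annotated span overlaps HIST1H4I, had 25.2 (ibrutinib) and 28.2 FPKM (idelalisib) in resistant DOHH2, 4.17 (ibrutinib) and 7.19 FPKM (idelalisib) in resistant DAUDI, and 188 (DOHH2) and 192 FPKM (DAUDI) in the libraries labelled WT, a difference of -3.83 ± 0.54 (SE, adjusted p = 0.014). Both resistant DOHH2 libraries lay above both resistant DAUDI libraries. HIST2H2BE, an H2B gene with an annotated polyA end, had 1.8 (ibrutinib) and 2.59 FPKM (idelalisib) in resistant DOHH2, 0.385 (ibrutinib) and 1.19 FPKM (idelalisib) in resistant DAUDI, and 26.6 (DOHH2) and 23 FPKM (DAUDI) in the libraries labelled WT, a difference of -3.45 ± 0.24 (SE, adjusted p = 0.00361). HIST2H2AA4, an H2A gene with a near-identical copy (HIST2H2AA3), had 7.12 (ibrutinib) and 9.55 FPKM (idelalisib) in resistant DOHH2, 1.82 (ibrutinib) and 9.14 FPKM (idelalisib) in resistant DAUDI, and 58.6 (DOHH2) and 48 FPKM (DAUDI) in the libraries labelled WT, a difference of -2.94 ± 0.36 (SE, adjusted p = 0.0106). HIST1H2AC, an H2A gene with an annotated polyA end, had 9.45 (ibrutinib) and 8.18 FPKM (idelalisib) in resistant DOHH2, 1.28 (ibrutinib) and 2.44 FPKM (idelalisib) in resistant DAUDI, and 51.5 (DOHH2) and 47.2 FPKM (DAUDI) in the libraries labelled WT, a difference of -3.26 ± 0.47 (SE, adjusted p = 0.0142). In none of these genes did the resistant and WT-labelled libraries overlap. The genes were named for their high levels and calls, and how often all genes show no overlap was not counted.

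Apart from HIST1H2BD, the remaining called members were lower in abundance than HIST2H2BE in the libraries labelled WT. HIST1H2BF had 1.23 (ibrutinib) and 2.4 FPKM (idelalisib) in resistant DOHH2, 0 (ibrutinib) and 0.699 FPKM (idelalisib) in resistant DAUDI, and 8.78 (DOHH2) and 8.19 FPKM (DAUDI) in the libraries labelled WT, a difference of -2.32 ± 0.30 (SE, adjusted p = 0.0114). HIST4H4, the single gene of its cluster, had 2.2 (ibrutinib) and 2.3 FPKM (idelalisib) in resistant DOHH2, 1.7 (ibrutinib) and 1.08 FPKM (idelalisib) in resistant DAUDI, and 7.28 (DOHH2) and 7.7 FPKM (DAUDI) in the libraries labelled WT, a difference of -1.61 ± 0.23 (SE, adjusted p = 0.0142). HIST1H2AI had 5.01 (ibrutinib) and 6.8 FPKM (idelalisib) in resistant DOHH2, 0.855 (ibrutinib) and 3.84 FPKM (idelalisib) in resistant DAUDI, and 13 (DOHH2) and 10.8 FPKM (DAUDI) in the libraries labelled WT. HIST4H4 was lowest in idelalisib-resistant DAUDI, whereas HIST1H2AI was lowest in ibrutinib-resistant DAUDI. HIST2H2BC had 2.07 (ibrutinib) and 2.75 FPKM (idelalisib) in resistant DOHH2, 1.43 (ibrutinib) and 1.17 FPKM (idelalisib) in resistant DAUDI, and 4.73 (DOHH2) and 5.17 FPKM (DAUDI) in the libraries labelled WT. HIST1H3H, given above, was called as well (-1.69, adjusted p = 0.017). HIST1H2AE and HIST1H2BG are described with their neighbours below, and HIST1H2BD with its isoforms. HIST1H1D, HIST1H2BE, HIST1H2BH, HIST1H3E, HIST1H3F, HIST1H3G, HIST1H4F and HIST2H2BA were also called, all under 5 FPKM in every library. All of these except HIST2H2BA, 7 of the 21, reached 1 FPKM only in libraries labelled WT and so became members through the higher side of this contrast. Their calls give no support to its direction. Of the other 54 members 14 were called. HIST1H2BH was listed at 0 in all 4 resistant libraries, so no fold is given for it. Without any single library, between 4 (without idelalisib-resistant DOHH2) and 25 members (without DOHH2 labelled WT) passed; without ibrutinib-resistant DAUDI or without idelalisib-resistant DAUDI 5 passed, and without ibrutinib-resistant DOHH2 11 passed. HIST1H1C, HIST1H2AE and HIST2H2BE passed in all 6 of these fits.

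**Figure D3:**
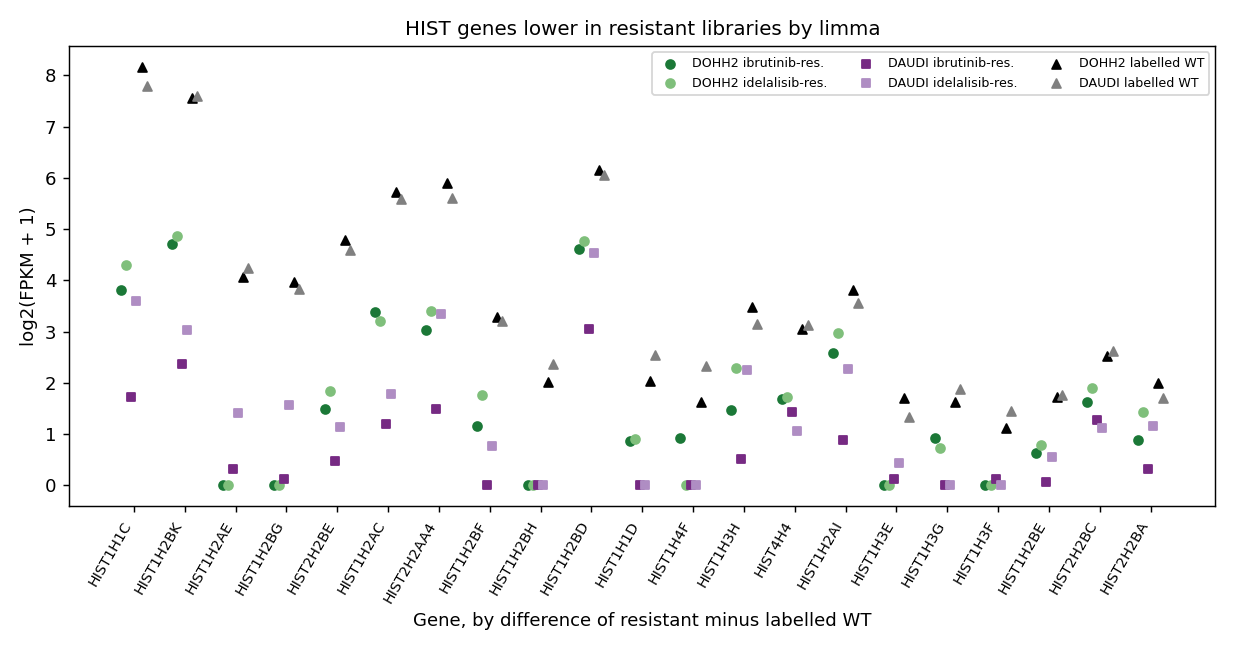
log2(FPKM + 1) of the 21 HIST genes that were lower in resistant libraries by limma, ordered by the fitted difference; circles are resistant DOHH2, squares resistant DAUDI and triangles the libraries labelled WT, 1 library each. HIST1H1C and HIST1H2BK show the widest gaps, with 286 and 220.2 FPKM for HIST1H1C in DOHH2 and DAUDI labelled WT.

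By line and drug, with 1 library on each side and no test, 23 members were lower and 2 higher by 1 or more in ibrutinib-resistant DOHH2 than in DOHH2 labelled WT (15.6% and 14.8% of all genes), the higher ones being HIST1H2BL (1.10) and HIST1H4L (1.19). In idelalisib-resistant DOHH2 19 were lower and 5 higher (15.7% and 15.9% of all genes). In ibrutinib-resistant DAUDI 53 were lower and 1 higher than in DAUDI labelled WT (14.3% and 20.2% of all genes), the higher one being HIST3H2A, and in idelalisib-resistant DAUDI 23 were lower and 4 higher (15.8% and 15.1% of all genes). Both comparisons within a line share the same WT-labelled library. Of the members, 9 reached 1 FPKM only in libraries labelled WT, and all 9 are among the 53 lower in ibrutinib-resistant DAUDI. Another 5, HIST3H2A among them, reached 1 FPKM only in resistant libraries. The filter favoured the side on which these members lie, so they give no support to a direction in the 4 comparisons. With a pseudocount of 5, 11, 9, 23 and 12 members were called in these 4 comparisons in the order given. Rescaling by the median of ratios gave 55 lower and 1 higher in ibrutinib-resistant DAUDI, and the split of all genes there moved to 1897 higher and 2114 lower, against 2466 higher and 1747 lower as deposited. H2B genes stood at 10 of 19 lower in ibrutinib-resistant DOHH2, 6 of 19 in idelalisib-resistant DOHH2, 18 of 19 in ibrutinib-resistant DAUDI and 10 of 19 in idelalisib-resistant DAUDI. The members higher by 1 or more in idelalisib-resistant DOHH2 were HIST1H1B (1.10), HIST1H3A (1.03), HIST1H3B (1.29), HIST1H4A (1.34) and HIST2H2AB (1.37). Those in idelalisib-resistant DAUDI were HIST1H4B (1.51) and HIST2H3A (1.13), plus HIST3H2A and HIST3H2BB, which were listed at 0 in DAUDI labelled WT.

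In these same comparisons most genes of the surrounding lists differed by less than 1 from the library labelled WT, except the tailless RNAs in resistant DAUDI. Among histone chaperones, 6, 5, 5 and 5 of 27 were higher and 0, 0, 2 and 1 were lower by 1 or more than in the library labelled WT, for ibrutinib-resistant and idelalisib-resistant DOHH2 and ibrutinib-resistant and idelalisib-resistant DAUDI in that order. RBBP4, a subunit of chromatin assembly factor CAF-1, had 36.3 (ibrutinib) and 35.3 FPKM (idelalisib) in resistant DOHH2, 36.2 (ibrutinib) and 26.9 FPKM (idelalisib) in resistant DAUDI, and 7.52 (DOHH2) and 8.75 FPKM (DAUDI) in the libraries labelled WT. Of the 3′ processing genes, LSM10, a protein of the U7 small nuclear RNP, had 36.7 (ibrutinib) and 54.2 FPKM (idelalisib) in resistant DOHH2, 68.4 (ibrutinib) and 71.9 FPKM (idelalisib) in resistant DAUDI, and 9.72 (DOHH2) and 8.97 FPKM (DAUDI) in the libraries labelled WT. LSM10 was higher in the 4 resistant libraries than in either library labelled WT. SLBP had 29 (ibrutinib) and 22.4 FPKM (idelalisib) in resistant DOHH2, 33.3 (ibrutinib) and 32.9 FPKM (idelalisib) in resistant DAUDI, and 15.2 (DOHH2) and 18.8 FPKM (DAUDI) in the libraries labelled WT. Among S phase genes 11, 6, 5 and 4 of 38 were higher and 1, 3, 4 and 6 lower in the same order of libraries, and among G2 and M genes 0, 0, 1 and 0 of 20 were higher and 1, 1, 2 and 2 lower. The tailless RNAs had 1, 2, 3 and 3 of 8 higher and 1, 0, 4 and 1 lower. Of the 10 histone genes outside the clusters 2, 1, 1 and 1 were higher and 2, 2, 2 and 3 lower; H2AFJ, an H2A variant gene, had 1.23 (ibrutinib) and 0.925 FPKM (idelalisib) in resistant DOHH2, 0.0124 (ibrutinib) and 0.00848 FPKM (idelalisib) in resistant DAUDI, and 6.99 (DOHH2) and 7.81 FPKM (DAUDI) in the libraries labelled WT.

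HIST1H2BD showed a change of isoform along with its level. The tables list an unspliced isoform of 487 nt that ends near the stem-loop and a spliced isoform of 813 nt that ends at the downstream polyA signal shown above. The gene as a whole had 23.5 (ibrutinib) and 26.3 FPKM (idelalisib) in resistant DOHH2, 7.28 (ibrutinib) and 22 FPKM (idelalisib) in resistant DAUDI, and 70.2 (DOHH2) and 65.2 FPKM (DAUDI) in the libraries labelled WT, a difference of -1.86 ± 0.36 (SE, adjusted p = 0.0287) between resistant and WT-labelled libraries. The spliced isoform had 6.09 (ibrutinib) and 4.88 FPKM (idelalisib) in resistant DOHH2, 1.36 (ibrutinib) and 0.371 FPKM (idelalisib) in resistant DAUDI, and 62.7 (DOHH2) and 55.6 FPKM (DAUDI) in the libraries labelled WT. The unspliced isoform had 17.4 (ibrutinib) and 21.4 FPKM (idelalisib) in resistant DOHH2, 5.92 (ibrutinib) and 21.7 FPKM (idelalisib) in resistant DAUDI, and 7.52 (DOHH2) and 9.6 FPKM (DAUDI) in the libraries labelled WT. The spliced form thus made up 26.0% and 18.6% of the gene in ibrutinib-resistant and idelalisib-resistant DOHH2, 18.7% and 1.68% in ibrutinib-resistant and idelalisib-resistant DAUDI, and 89.3% and 85.3% in DOHH2 and DAUDI labelled WT. Resistant and WT-labelled libraries did not overlap in the spliced form, and how often this holds over all isoforms was not counted. The unspliced form was lowest in ibrutinib-resistant DAUDI and highest in idelalisib-resistant DAUDI. These shares were not tested, and the estimates of the isoforms depend on each other because they share sequence.

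**Figure D4:**
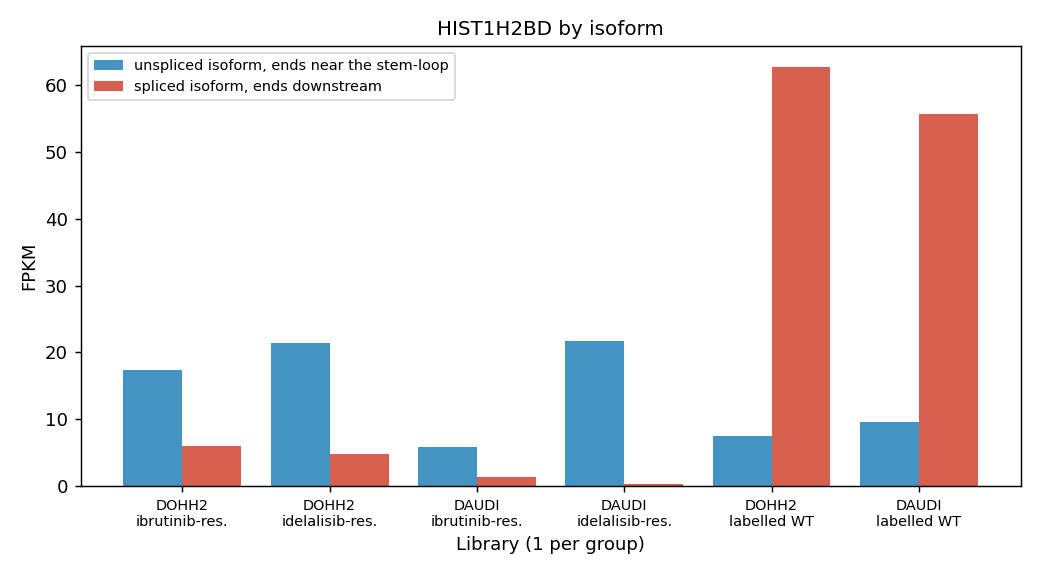
FPKM of the unspliced (blue) and spliced (red) isoforms of HIST1H2BD in each of the 6 libraries (1 library per bar pair, no error bar). The spliced isoform is at 62.7 and 55.6 FPKM in DOHH2 and DAUDI labelled WT and at 6.09 FPKM or less in the 4 resistant libraries.

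Members with and without an annotated polyA end were set side by side as a description; this split was chosen after values had been seen. The 19 members with such an end had a median fitted difference of −1.38 between resistant and WT-labelled libraries, against −0.76 for the 44 without one. For ibrutinib-resistant minus idelalisib-resistant DAUDI the medians were −1.16 with and −1.09 without. The highest WT-labelled levels were found in both classes, since HIST1H2BD, HIST1H2AC and HIST2H2BE have an annotated end and HIST1H1C, HIST1H2BK and HIST2H2AA4 do not in GENCODE 29. For HIST1H2BK, however, GENCODE 29 lists only a transcript of 381 nt. The isoform measured here has 839 nt and spans chr6:27106072-27114637 (hg19). The classes depend on how far the annotated transcripts reach, so they do not separate tailed from tailless forms.

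Between the lines, the counts differed by drug, with 1 library on each side and no test of that difference. In ibrutinib-resistant cells 31 members were higher and 2 lower by 1 or more in DOHH2 than in DAUDI (8.01% and 13.7% of all genes), the lower ones being HIST1H4E and HIST3H2A, and in idelalisib-resistant cells 5 were higher and 9 lower (9.04% and 9.31% of all genes). Between the libraries labelled WT 0 were higher and 3 lower (HIST1H2BL, HIST1H3C and HIST1H4L; 0.32% and 0.172% of all genes, 0.492% in either direction). The median member difference was 0.99 in ibrutinib-resistant cells and 0.00 in idelalisib-resistant cells, against −0.12 and 0.01 for all genes. In limma on the 4 resistant libraries with the drug as a block, 10 of 63 members were called for the line, 8 higher and 2 lower in DOHH2, where 20.8% of all genes were called (9.49% higher, 11.3% lower). HIST1H2BK was higher in resistant DOHH2, by 2.09 ± 0.21 (SE, adjusted p = 0.015), and so were HIST1H2AC, by 1.81 ± 0.28 (SE, adjusted p = 0.0337), HIST1H2BF, by 1.08 ± 0.09 (SE, adjusted p = 0.0116), and HIST2H2BE, by 0.87 ± 0.13 (SE, adjusted p = 0.0336). HIST2H2AB was called higher as well. None of these 5 calls was kept in all 4 fits that leave out 1 library: HIST1H2BK (adjusted p up to 0.113) and HIST1H2AC (up to 0.126) lost theirs without either DOHH2 library, while HIST1H2BF (0.109 to 0.341), HIST2H2BE (0.0756 to 0.340) and HIST2H2AB (0.201 to 0.550) passed in 0 of 4. HIST1H1D, HIST1H3C and HIST1H3G, called higher, were listed at 0 in both resistant DAUDI libraries. HIST1H4E and HIST3H2A, called lower, had a listed 0 in each of the resistant DOHH2 libraries, so no fold is given for these 5. HIST1H1D and HIST1H3G stayed under 1 FPKM in all 4 resistant libraries and became members only through the libraries labelled WT, which this fit leaves out. Values listed at 0 show no spread, and the SE were 0.056 for HIST1H1D, 0.062 for HIST1H3C and 0.076 for HIST1H3G. HIST3H2A reached 1 FPKM only in resistant DAUDI and HIST2H2AB only in resistant DOHH2, so that the filter fixed the direction of both, and their calls are no support for a line difference. Without 1 library and without the block between 3 (without ibrutinib-resistant DOHH2) and 23 members (without idelalisib-resistant DAUDI) were called; without ibrutinib-resistant DAUDI 15 were called, 6 higher and 9 lower, and without idelalisib-resistant DOHH2 4 were called. With all 6 libraries in the fit 0 members were called.

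Part of the line difference lay in genes listed at 0, of which 4 were neighbours. In resistant DOHH2, 4 members were listed at 0 in both libraries and above 0 in the other 4 libraries: HIST1H4E, HIST1H2BG, HIST1H2AE and HIST1H3E. They follow each other on chromosome 6 with no other listed gene between them (hg19, chr6:26204873-26225844). HIST1H4E had 0 (ibrutinib) and 0 FPKM (idelalisib) in resistant DOHH2, 4.05 (ibrutinib) and 12.3 FPKM (idelalisib) in resistant DAUDI, and 15.4 (DOHH2) and 18.6 FPKM (DAUDI) in the libraries labelled WT. HIST1H2BG had 0 (ibrutinib) and 0 FPKM (idelalisib) in resistant DOHH2, 0.0954 (ibrutinib) and 1.95 FPKM (idelalisib) in resistant DAUDI, and 14.7 (DOHH2) and 13.3 FPKM (DAUDI) in the libraries labelled WT. HIST1H2AE had 0 (ibrutinib) and 0 FPKM (idelalisib) in resistant DOHH2, 0.242 (ibrutinib) and 1.65 FPKM (idelalisib) in resistant DAUDI, and 15.8 (DOHH2) and 17.9 FPKM (DAUDI) in the libraries labelled WT. HIST1H3E had 0 (ibrutinib) and 0 FPKM (idelalisib) in resistant DOHH2, 0.0882 (ibrutinib) and 0.36 FPKM (idelalisib) in resistant DAUDI, and 2.27 (DOHH2) and 1.5 FPKM (DAUDI) in the libraries labelled WT. All 4 were highest in the libraries labelled WT, and of the resistant DAUDI libraries the idelalisib-resistant one was the higher for each. On the side of lower coordinates, HIST1H2BF and HIST1H3D were above 0 in resistant DOHH2, at 1.23 (ibrutinib) and 2.4 FPKM (idelalisib) for HIST1H2BF. On the other side, HIST1H1D was at 0.821 (ibrutinib) and 0.865 FPKM (idelalisib) in resistant DOHH2 and was listed at 0 in both resistant DAUDI libraries. HIST1H3G and, elsewhere in HIST1, HIST1H3C were likewise listed at 0 in both resistant DAUDI libraries and above 0 in the other 4. HIST1H3C had 1.21 (ibrutinib) and 1.24 FPKM (idelalisib) in resistant DOHH2, 0 (ibrutinib) and 0 FPKM (idelalisib) in resistant DAUDI, and 2.17 (DOHH2) and 5.59 FPKM (DAUDI) in the libraries labelled WT. In all, 47 members were above 0 in all 6 libraries. A value of 0 is the deposited estimate and has no lower limit of detection here.

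**Figure D5:**
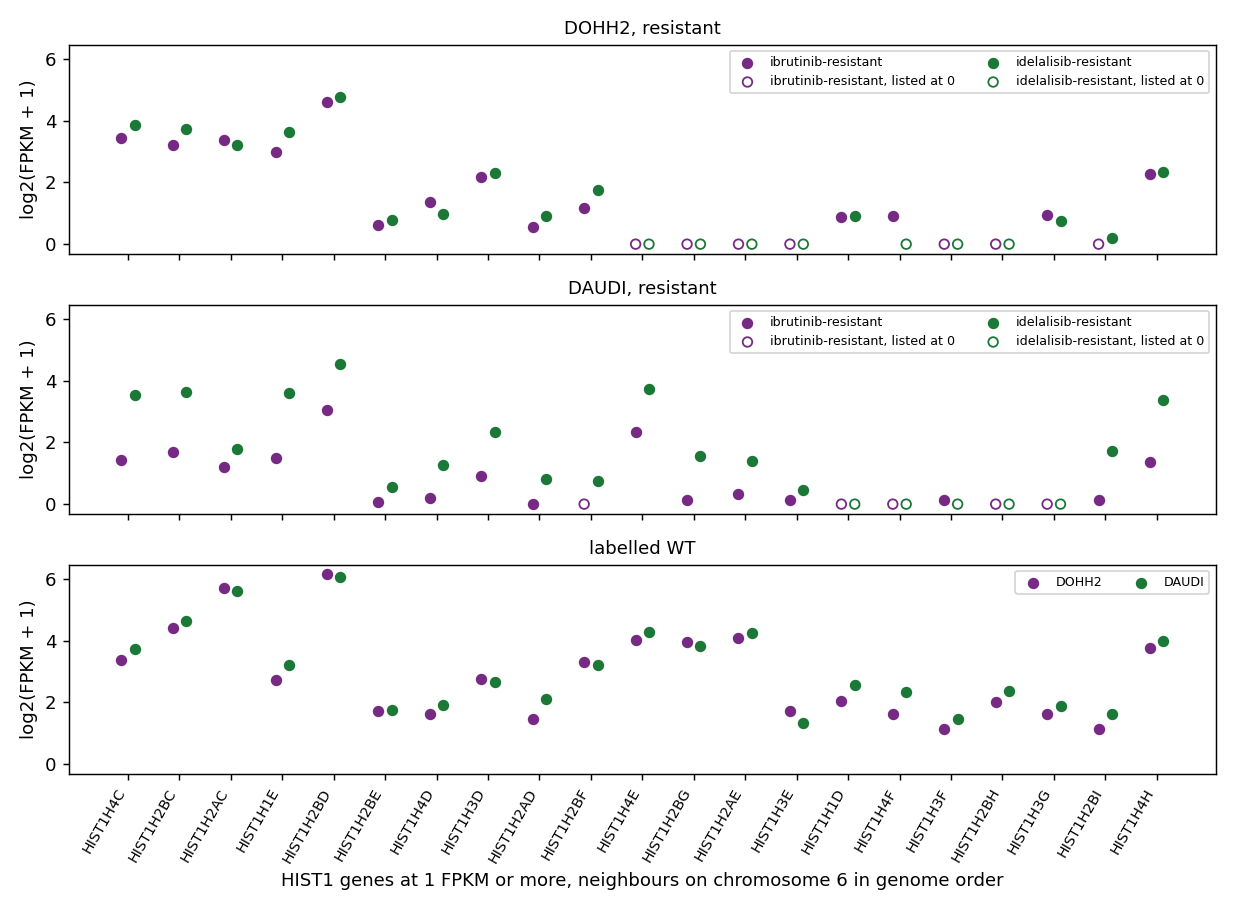
log2(FPKM + 1) of 21 neighbouring HIST1 genes of chromosome 6 in genome order (x axis) in resistant DOHH2 (top), resistant DAUDI (middle) and the libraries labelled WT (bottom); open circles are values listed at 0. In resistant DOHH2 the run from HIST1H4E to HIST1H3E is listed at 0 in both libraries, and in the libraries labelled WT none of the 21 is.

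HIST1H2BG and HIST1H2AE form a head-to-head pair with starts 233 nt apart, a common arrangement for H2A and H2B genes, and they moved together over the 6 libraries. The sequence before the HIST1H2BG start, which lies between both genes, is shown with the octamer ATGCAAAT (here on the other strand, ATTTGCAT), CCAAT boxes and TATAAA in capitals, and beside it that of HIST3H2A, whose partner is HIST3H2BB (RefSeq, GRCh38.p14, 5′ to 3′ on the gene's strand).
HIST1H2BG, chr6:26216689-26216838, minus strand: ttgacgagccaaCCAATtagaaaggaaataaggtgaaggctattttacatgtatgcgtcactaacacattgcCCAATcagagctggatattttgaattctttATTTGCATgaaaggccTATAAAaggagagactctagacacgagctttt
HIST3H2A, chr1:228457874-228458023, minus strand: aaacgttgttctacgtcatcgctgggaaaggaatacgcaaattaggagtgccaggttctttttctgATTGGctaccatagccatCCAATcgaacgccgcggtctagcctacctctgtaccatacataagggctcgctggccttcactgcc
Only HIST1H2BG holds the octamer and TATAAA in this stretch, and both hold a CCAAT box on either strand. Promoter sequence was found for 56 of the 63 members. In the window from 250 bases before to 50 after the start, on either strand, the octamer ATGCAAAT was present in 42.9% of them, among them 71.4% of H2A and 76.5% of H2B genes and 0% of H1 and H4 genes, against 1.77% of all 35116 promoters. CCAAT was present in 85.7% against 34.6%, and TATAAA in 64.3% against 11.5%. These are matches of letters, not measured binding.

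Other pairs did not always share their levels. HIST2H2BE and HIST2H2AC have starts 236 nt apart; HIST2H2BE was far higher in the libraries labelled WT, as given above, whereas HIST2H2AC was at 5.06 (ibrutinib) and 7.71 FPKM (idelalisib) in resistant DOHH2 and at 3.58 (DOHH2) and 3.76 FPKM (DAUDI) in the libraries labelled WT. HIST1H2BC and HIST1H2AC, 246 nt apart, were both highest in the libraries labelled WT, but in idelalisib-resistant DAUDI HIST1H2BC had 11.5 FPKM and HIST1H2AC 2.44 FPKM. HIST3H2A, an H2A gene of the smallest cluster on chromosome 1, had 0 (ibrutinib) and 0 FPKM (idelalisib) in resistant DOHH2, 5.36 (ibrutinib) and 9.28 FPKM (idelalisib) in resistant DAUDI, and 0 (DOHH2) and 0 FPKM (DAUDI) in the libraries labelled WT. It was the only member above 0 in both resistant DAUDI libraries and listed at 0 in the other 4. Its partner HIST3H2BB, 230 nt away, was listed at 0 in 5 libraries and had 1.13 FPKM in idelalisib-resistant DAUDI.

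Across members, the pair of resistant libraries was more alike in DOHH2 (r = 0.956 over 63 members, log2(FPKM + 1)) than in DAUDI (r = 0.835), and the libraries labelled WT had r = 0.968. Over all 12186 genes the resistant pair was likewise more alike in DOHH2 (r = 0.992) than in DAUDI (r = 0.980), and the libraries labelled WT had r = 0.991. These correlations describe members that share libraries and are given without a test. Between 30.8% and 76.9% of the 65 member isoforms per library had an FPKM outside its own deposited bounds, so those bounds were not used.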

How the data were processed

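RNA of 6 cultures was sequenced as polyA libraries with a directional mRNA kit, per the labels' protocols. Per the submitters' processing notes the authors used bcl2fastq, cutadapt, TopHat2 (hg19) and Cufflinks. No tool version was given in the sources used here. Each deposited table holds, per the file headers, FPKM per isoform scaled by the authors to length and mapped fragments, with lower and upper FPKM bounds, and a coverage signal that was not scaled to library size. Cufflinks shares reads between similar transcripts, so near-identical histone copies may exchange FPKM.

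Here FPKM were summed over isoforms of 300 nt or more per gene and analysed as log2(FPKM + 1). The gene lists and cell type markers were summed over isoforms of every length. Left out were 528 isoforms without a gene name and 10 genes with a failed estimate. With 1 library per group, a difference of 1 or more was counted without a test. limma 3.58.1 (empirical Bayes with trend, two-sided, Benjamini-Hochberg adjustment over all genes tested) was run on the 4 resistant libraries with line and drug as terms (1 residual degree of freedom), and on all 6 with line and state as terms (2 residual degrees of freedom), taking lines or drugs as replicates and assuming equal spread. It was also run on simulated data with independent noise and changes planted in genes of higher level. That simulation held no drug difference that depends on the line and no pair of libraries more alike than the rest. It therefore does not check the fits for these features. No label says that libraries of 1 state are separate replicate cultures, so p-values measure the spread between these libraries only. Relative depth is the median coverage per FPKM of isoforms at 10 FPKM or more.

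Members and gene lists were chosen with earlier results of these data known. Members at 5 FPKM or more in any library are named with all values; others are named where called or where a role is explained. Sequences come from GENCODE 29 (GRCh38) and RefSeq promoters (GRCh38.p14); coordinates of the tables are hg19. Alternatives tried were other pseudocounts (0.1, 5), no filter or 5 FPKM, all isoforms, rescaling by the median of ratios or to one upper quartile, other limma terms and leaving out each library.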

Additional observations from a re-analysis of the deposited data

Results flagged for a closer look

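HIST1H2BL, an H2B gene, differed in opposite directions between the lines for the same contrast: ibrutinib-resistant minus WT-labelled was 1.10 in DOHH2 (5.93 against 2.23 FPKM) and −2.68 in DAUDI (0.0919 against 6.01 FPKM). With 1 library per group the difference between the lines was not tested. The libraries labelled WT also differed for this gene, by −1.12 (DOHH2 minus DAUDI).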

How the results depend on the processing

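With 1 library per group, no read counts and member levels mostly under 15 FPKM, counts of called members moved with how low values are treated and, in limma, with the libraries in the fit. A pseudocount of 5 gave 11 and 9 called members for ibrutinib-resistant and idelalisib-resistant DOHH2 against WT-labelled, 23 and 12 for the same comparisons in DAUDI, 0 (DOHH2) and 12 (DAUDI, all lower) for ibrutinib minus idelalisib, and 8 (ibrutinib), 3 (idelalisib) and 0 (WT-labelled) for DOHH2 minus DAUDI. A pseudocount of 0.1 gave 6 for ibrutinib minus idelalisib in DOHH2, and 22 (idelalisib) and 5 (WT-labelled) for DOHH2 minus DAUDI. Keeping genes at 5 FPKM or more, which leaves fewer members, gave 15 for idelalisib-resistant DOHH2 and 34 for ibrutinib-resistant DAUDI against WT-labelled, 0 for ibrutinib minus idelalisib in DOHH2, and 12 in limma for resistant minus WT-labelled. The median of ratios gave 0 for ibrutinib minus idelalisib in DOHH2. In limma, no filter on low values gave 5 members for resistant minus WT-labelled and 0 for the lines, and all 6 libraries gave 0 for the lines; these causes were not tested. Leaving out 1 library gave 4 to 25 members for resistant minus WT-labelled and 3 to 23 for the lines, with a lone library of a group taken to vary like the others. Without the line as a block, resistant minus WT-labelled gave 20 members, and without the drug as a block the lines gave 7. No paired analysis was possible because each group has only a replicate 1, so no fit with the replicate number as a block exists; the line and drug blocks above come from the labels' line and drug. Among single-gene values, 3444 kept their side of the threshold under the alternatives, 162 lost a call, 57 gained one and 0 reversed.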
